A study of Mus musculus with 24 samples.

Results

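The B-cell lineage genes described here are 9 of the 55376 genes in the count tables, and were taken as the rows with the symbols Cd79a, Cd79b, Ms4a1, Pax5, Ebf1, Cd22, Blk, Fcmr and Vpreb3. All 9 were found in each of 24 bulk mRNA-seq libraries. The libraries were made from marrow cells of untreated mice in 6 groups. Hematopoietic stem cells (HSCs) gave 4 libraries of Y-WT and 4 of Y-TTPΔARE (young), and 5 of M-WT and 3 of M-TTPΔARE (middle-aged). MPP3 cells, multipotent progenitors with a myeloid bias, gave 4 libraries of Y-WT and 4 of Y-TTPΔARE, all young. The sample titles write the mutant as TTPdeltaARE. TTPΔARE mice lack an AU-rich element in the 3′ untranslated region of Zfp36, which encodes the RNA decay factor tristetraprolin (TTP), in every cell and not in blood cells alone, and the controls were WT littermates. By the study's methods TTPΔARE mice were homozygous and all mice were male, and HSCs were sorted as lineage-negative, Sca1+, cKit+ cells that were CD34-, Flk2- and CD150+. The labels do not say whether each library is a separate animal, so the p-values measure the spread between libraries, which may in part be technical. Age and cell type each go with their own run of sample numbers, and so does genotype within each age and cell type. The labels do not say what the numbers stand for. Age, cell type and genotype thus cannot be told apart from anything in the handling that followed these numbers.

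B cells arise in the marrow from lymphoid progenitors. Ebf1 and Pax5 are the transcription factors that specify and hold the lineage. Cd79a and Cd79b are the signalling chains of the B-cell receptor, Blk is a kinase of the Src family that acts below it, and Cd22 is a lectin of the B-cell surface that dampens it. Ms4a1 encodes CD20, Fcmr encodes a receptor for IgM, and Vpreb3 encodes a protein that binds immunoglobulin chains inside precursor B cells. Plasma cells, the end stage of the lineage, lose many of these genes but keep making immunoglobulin.

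Depth was between 24261371 and 39934554 counts per library (median 34817620.5). Zfp36, the targeted gene, was higher in every TTPΔARE library than in every WT library of the same age and cell type, with means of 94.9 against 47.5 CPM in young HSCs, 102 against 50.2 in middle-aged HSCs and 105 against 29.5 in MPP3 cells. CPM are counts scaled to library size with TMM factors over the 24 libraries. A list of 10 HSC genes summed to between 3664 and 5575 CPM in the HSC libraries and to between 2247 and 3506 in the MPP3 libraries, and the progenitor genes Cd34, Cd48 and Flt3 together to between 140 and 457 CPM in HSCs and to between 2049 and 2681 in MPP3 cells. In bulk samples, fewer cells of a type and less RNA per cell cannot be told apart, and this holds for every value below.

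The genes lie on 7 chromosomes (GENCODE M21, GRCm38). Cd79a (7, 24897381 to 24902197, plus strand) and Cd22 (7, 30865402 to 30880342, minus) share a chromosome, as do Ebf1 (11, 44617317 to 45008091, plus) and Cd79b (11, 106311341 to 106314762, minus). Ms4a1 lies on chromosome 19 (11249675 to 11266241, minus), Pax5 on 4 (44524757 to 44710487, minus) and Blk on 14 (63372836 to 63417037, minus). Fcmr lies on chromosome 1 (130865669 to 130880791, plus) and Vpreb3 on 10 (75943057 to 75949657, plus). Exons of Cd22 overlap those of an antisense gene, Gm29439, and exons of Pax5 overlap those of Gm12462 and 5730488B01Rik on the other strand. Whether counting used the strand is not given in the sources used here, so reads from either partner cannot be told apart.

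TTP binds AU-rich elements in 3′ untranslated regions, with TATTTAT (in DNA letters) as its preferred core. In the longest annotated 3′ untranslated region of each gene, the pentamer ATTTA was found 10 times in Ebf1 (3343 bases), 6 times in Pax5 (6749 bases), 2 times in Ms4a1 and 1 time in Cd79a, and 0 times in Cd79b, Cd22, Blk, Fcmr and Vpreb3. Of 21007 genes with such a region, 65.2% held ATTTA and 27.6% held TATTTAT. Ebf1 was the only member with TATTTAT, at 3 places, which are shown because they are the only such letters in the set. They lie in its last exon on the plus strand at chr11:45004968-45004996, chr11:45006205-45006233 and chr11:45006387-45006415 (GRCm38). The capitals mark the heptamer.
Ebf1 site 231: tctgggggataTATTTATtctgtattgat
Ebf1 site 1468: caaagttgtttTATTTATacattttaatg
Ebf1 site 1650: tataaataatgTATTTATctttggaattt
The number in each name counts bases from the first base after the stop codon. Zfp36 itself held 3 ATTTA, all within TATTTAT.

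Promoter sequences from RefSeq (GRCm38.p6, 250 bases before to 50 after a start) were matched for Cd79a, Pax5, Ebf1, Cd22, Fcmr and Vpreb3. The 3 motifs searched, on both strands, were the EBF palindrome (TCCC, any 2 bases, then GGGA), the octamer ATTTGCAT and the E-box CAGGTG. They stand in 0.9041%, 1.735% and 20.21% of 32851 promoters. Cd22 held the palindrome 49 bases before its RefSeq start (chr7:30879058-30879087, minus strand), Vpreb3 held the octamer 45 bases before its RefSeq start (chr10:75948244-75948273, plus strand), and the E-box stood in Cd79a, Cd22 and Fcmr. The first pair is shown because these are the rarer letters, with the motif in capitals.
Cd22: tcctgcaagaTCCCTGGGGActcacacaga
Vpreb3: tcagtgggctgATTTGCATgctctattgtg
A match of letters is a description and not a binding site.

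The receptor chains were the members with the most RNA. Per kilobase of exon, the mean over the 24 libraries was 35.2 CPM for Cd79b and 12.9 for Cd79a. The other members followed with 1.70 for Vpreb3, 0.838 for Fcmr, 0.477 for Ms4a1, 0.291 for Cd22, 0.222 for Blk, 0.155 for Ebf1 and 0.0568 for Pax5. Cd79b and Cd79a did not fall to 0 in any library, whereas Pax5 was at 0 counts in 4 libraries and Fcmr in 3. Pax5 was under 1 CPM in 22 libraries, Blk in 21 and Cd22 in 17.

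**Figure D1:**
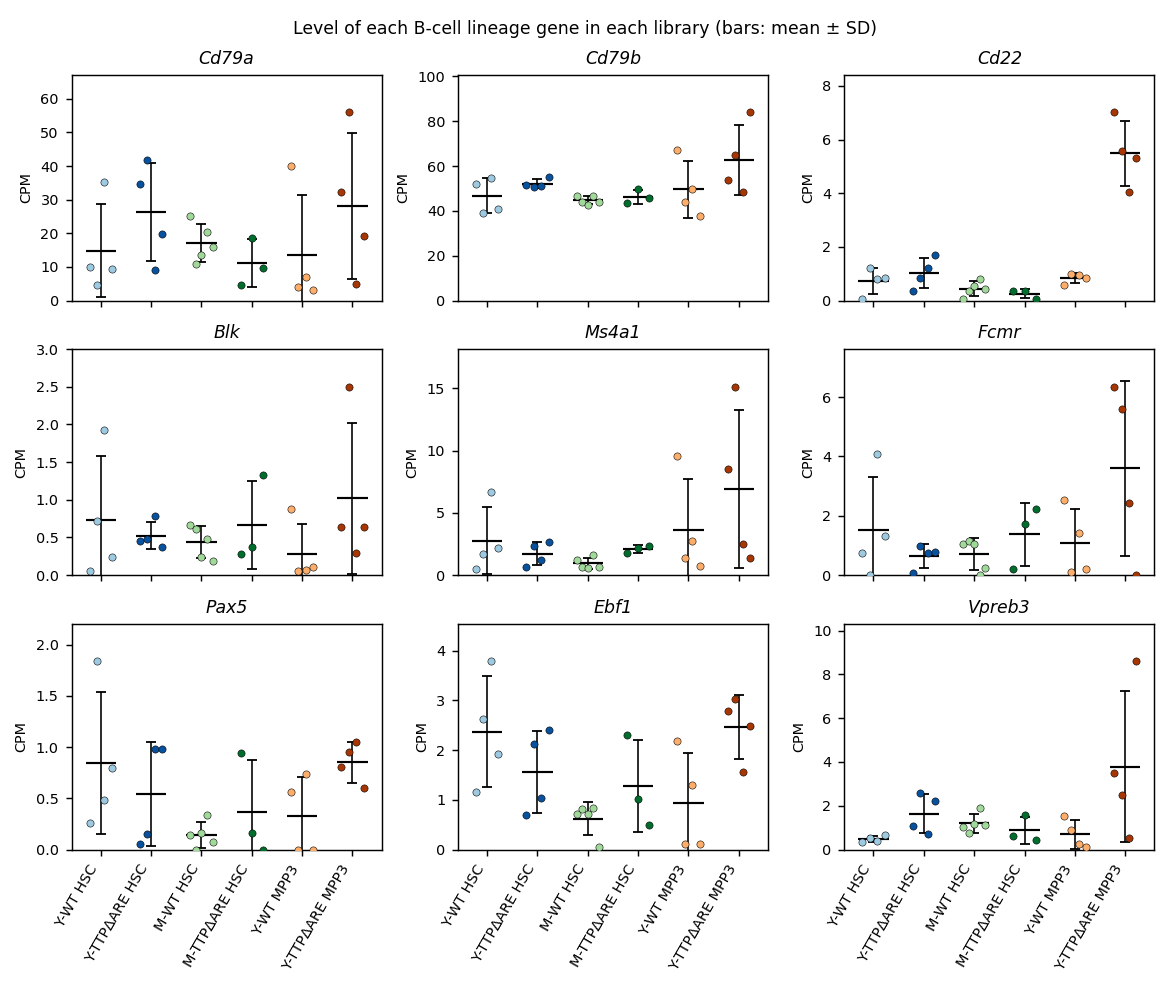
CPM (vertical axes, linear, each from 0) of the 9 genes in the 24 libraries, arranged in the 6 groups. Points are libraries, and bars are the mean ± SD. Cd22 stood out in the 4 Y-TTPΔARE MPP3 libraries (4.05 to 7.02 CPM), Cd79b stayed between 37.5 and 84.0 CPM in every library, and the other genes overlapped between most groups.

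Cd79b varied least of the members. In young HSCs it had 52.1, 39.0, 54.8 and 40.9 CPM in the Y-WT libraries and 51.4, 50.7, 51.2 and 55.2 in Y-TTPΔARE. In middle-aged HSCs it had 46.7, 44.1, 42.7, 46.6 and 43.8 CPM in the M-WT libraries and 43.6, 49.8 and 45.6 in M-TTPΔARE. The genotypes overlapped at both ages, and so did the ages in WT. In TTPΔARE HSCs the lowest young library (50.7 CPM) lay just above the highest middle-aged one (49.8 CPM). Age was not tested within TTPΔARE, and the share of all genes that part this way was not counted. The highest library was 2.24 times the lowest over all 24. In MPP3 cells the values were 67.0, 44.0, 49.8 and 37.5 CPM in the Y-WT libraries and 53.6, 65.0, 48.6 and 84.0 in Y-TTPΔARE, and the groups overlapped. The group means of Cd79b ran from 44.8 ± 1.78 CPM (SD, n = 5) in M-WT HSCs to 62.8 ± 15.7 (SD, n = 4) in Y-TTPΔARE MPP3 cells, and neighbours in this order overlapped.

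Cd79a, whose protein pairs with that of Cd79b, varied far more. It had 10.1, 4.70, 35.3 and 9.30 CPM in Y-WT HSCs and 34.6, 41.7, 9.11 and 19.8 in Y-TTPΔARE HSCs. Middle-aged HSCs had 25.3, 11.0, 13.5, 20.2 and 15.8 CPM in the M-WT libraries and 4.68, 18.7 and 9.78 in M-TTPΔARE. High and low libraries were found in both genotypes, and the groups overlapped at both ages. In MPP3 cells Cd79a had 40.1, 4.02, 6.90 and 3.14 CPM in the Y-WT libraries and 32.2, 56.0, 4.99 and 19.3 in Y-TTPΔARE. The highest of all libraries was 17.9 times the lowest. The coefficient of variation over the 24 libraries was 0.765 for Cd79a and 0.201 for Cd79b, and the ratio of Cd79a to Cd79b in CPM ran from 0.0836 to 0.862.

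The level of Cd79a moved with that of 7 plasma cell genes (Jchain, Sdc1, Mzb1, Xbp1, Prdm1, Derl3 and Tnfrsf17), a sum in which Jchain, the joining chain of secreted antibodies, made up most of the CPM. Their summed CPM was between 499 and 5782. Over the 24 libraries the log2 values had a Pearson's r of 0.941 and a Spearman's rho of 0.936 (permutation p = 1e-05 for each, the smallest that the resamples can give, and 2.7e-04 after Benjamini-Hochberg adjustment over 27 relations). With the 2 libraries whose sums lay farthest from the median left out, r was 0.942. Within the sets r was 0.934 in the 8 young HSC libraries, 0.947 in the 8 middle-aged HSC libraries and 0.954 in the 8 MPP3 libraries (exact permutation p = 0.0013, 6.9e-04 and 3.5e-04). For the other members r ran from -0.08 for Pax5 to 0.543 for Blk (adjusted permutation p = 0.789 and 0.0204). It was 0.503 for Fcmr and 0.495 for Cd79b (adjusted permutation p = 0.0349 for each), and 0.03 for Cd22 (adjusted permutation p = 0.931). In the MPP3 libraries alone r was also 0.915 for Ms4a1, 0.835 for Blk and 0.778 for Ebf1 (exact permutation p = 0.0054, 0.0053 and 0.0246). The relation of Cd79a was singled out after these values were seen, and the libraries differ in depth and in the share of immunoglobulin RNA. Constant-region genes of immunoglobulins took between 0.183% and 6.12% of the counts, with the highest share in Y-WT MPP3 replicate 1, the library in which Cd79a had 40.1 CPM. The part of plasma cells in the levels of Cd79a was not tested.

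**Figure D2:**
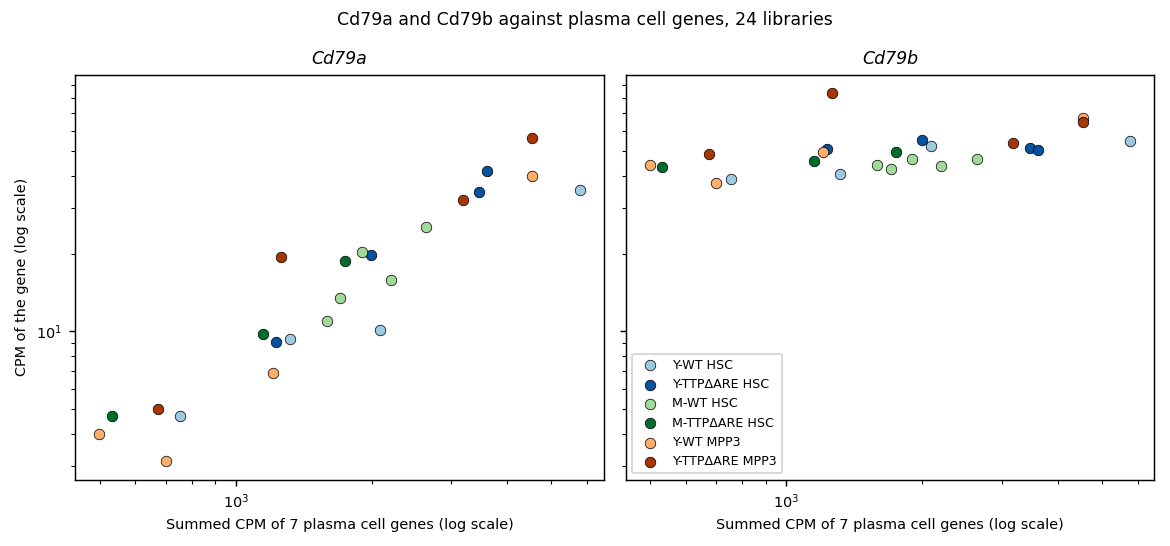
CPM of Cd79a (left) and Cd79b (right) against the summed CPM of 7 plasma cell genes in the 24 libraries, with log scales on all axes and colours for the 6 groups. Cd79a was higher where the sum was higher (r = 0.941), whereas Cd79b lay in a narrow band between 37.5 and 84.0 CPM (r = 0.495).

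The genes whose pattern was most like the summed CPM of the 9 members, by Spearman's rho over the 24 libraries among 16175 genes with a mean of at least 1 CPM, were Gm37787 (0.894), Mzb1 (0.886), Derl3 and Prg2 (0.872 each), Gm5547 (0.827), Slamf7 (0.811), Blnk (0.797), Herpud1 (0.795), Wnt10a (0.781) and Ly6d (0.777). Mzb1 and Derl3 are among the 7 plasma cell genes. Blnk encodes the adaptor of the B-cell receptor. The sum is carried by Cd79b and Cd79a, so this ranking follows those genes. Among the members, rank correlations over the 24 libraries were 0.767 for Pax5 and Ebf1, 0.690 for Ms4a1 and Ebf1, 0.686 for Cd79a and Cd79b, and 0.357 for Cd79a and Ms4a1.

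In MPP3 cells the question was which genes TTPΔARE changed in a myeloid-biased progenitor. Counts of all genes were fitted by quasi-likelihood in edgeR, with p adjusted by Benjamini-Hochberg. A call needed an adjusted p under 0.05, a change of over 1.2-fold and an average logCPM (log2 CPM over the libraries fitted) over 1.5. By this rule 1 of the 9 members, Cd22, was called higher in Y-TTPΔARE and 0 lower, where 1.71% of all 19023 genes tested were called in either direction and 1.58% higher. Cd22 had 0.564, 0.982, 0.938 and 0.830 CPM in the Y-WT libraries (16, 34, 28 and 32 counts). It had 7.02, 5.57, 4.05 and 5.31 CPM in the Y-TTPΔARE libraries (219, 187, 112 and 124 counts). Every Y-TTPΔARE library was above every Y-WT library, which held for 5.05% of all genes tested, and the means were 5.49 ± 1.22 and 0.83 ± 0.19 CPM (SD, n = 4 each). The log2 fold change was 2.68 (standard error 0.31, adjusted p = 0.0014 from edgeR).

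The average logCPM of Cd22 was 1.54, just over the limit of 1.5. Leaving out any 1 of the 4 Y-TTPΔARE MPP3 libraries brought it under that limit and ended the call, with log2 fold changes of 2.50 without replicate 1, 2.64 without replicate 2, 2.79 without replicate 3 and 2.75 without replicate 4, and adjusted p from 0.0031 to 0.0092 in edgeR. Without the limit the count of members called was also 1, where 2.03% of all genes passed. The antisense gene Gm29439, which shares exon sequence with Cd22, had 1.08 ± 0.385 CPM in Y-TTPΔARE and 0.0983 ± 0.0961 in Y-WT MPP3 libraries (SD, n = 4 each), so part of the reads of both may belong to either.

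The other 8 members also had positive log2 fold changes in MPP3 cells but did not pass the test. Of all genes tested 54.7% were positive, and the signs of the members were not tested as a set. The values were 2.35 for Vpreb3 (standard error 0.89, adjusted p = 0.317 from edgeR), 1.94 for Blk, 1.86 for Fcmr, 1.45 for Pax5 and for Ebf1, 1.12 for Cd79a, 1.04 for Ms4a1 and 0.30 for Cd79b, with adjusted p from 0.317 to 0.666. The median of the 9 was 1.45, and that of all genes tested was 0.04. At an unadjusted p under 0.05 there were 2 members, Cd22 and Vpreb3. Ms4a1 and Vpreb3 spread widely within groups. Ms4a1 had 9.59, 1.33, 2.71 and 0.726 CPM in the Y-WT libraries and 8.56, 15.1, 2.53 and 1.37 in Y-TTPΔARE, with a high and a low library in each genotype. Vpreb3 had 1.55, 0.896, 0.235 and 0.104 CPM in the Y-WT libraries and 3.49, 2.50, 0.506 and 8.60 in Y-TTPΔARE, and the groups overlapped.

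The lineage factors were low in both genotypes of MPP3 cells. Ebf1 had 2.19, 0.116, 1.31 and 0.104 CPM in the Y-WT libraries and 2.79, 3.04, 1.55 and 2.48 in Y-TTPΔARE, so that only Y-WT replicate 1 reached into the range of the mutant. Pax5 had 0.564, 0, 0.737 and 0 CPM in the Y-WT libraries and 0.801, 0.953, 1.05 and 0.599 in Y-TTPΔARE, where 1 Y-WT library lay above the lowest mutant library. Fcmr was at 6.35, 5.60, 2.42 and 0 CPM in Y-TTPΔARE and at 2.54, 0.116, 1.41 and 0.207 in Y-WT, with the mutant group holding both the highest and the lowest library. Blk had 0.882, 0.0578, 0.0670 and 0.104 CPM in the Y-WT libraries and 0.641, 2.50, 0.289 and 0.642 in Y-TTPΔARE, and these overlapped through Y-WT replicate 1.

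**Figure D3:**
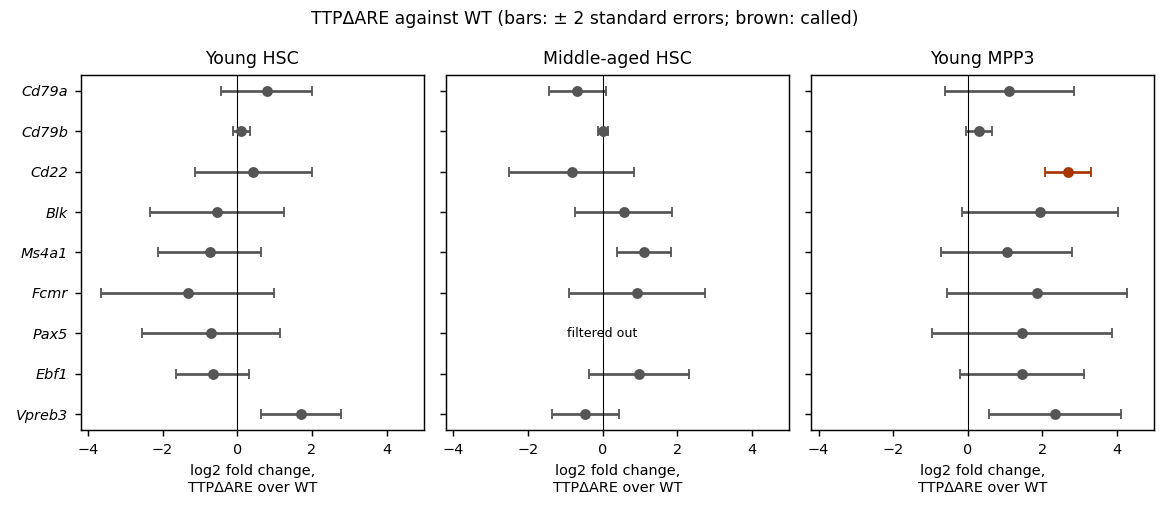
Log2 fold change of TTPΔARE over WT (horizontal axes) for each gene in 3 panels, HSCs of young mice, HSCs of middle-aged mice and MPP3 cells, as fitted in edgeR. Points are estimates, bars are ± 2 standard errors and brown marks a called gene. Cd22 in MPP3 cells (2.68) is the only called value, all 9 points in MPP3 cells lie to the right of 0, and Pax5 was filtered out for low counts in middle-aged HSCs.

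Other genes of the lineage were also called higher in the same MPP3 comparison, where 1.58% of all genes tested were, and none of these lists had a gene called lower. Of 15 genes of B-cell receptor signalling 1 was called higher, Fcgr2b (log2 fold change 1.91), an inhibitory receptor for IgG that myeloid cells also carry. Of 15 transcription factors of B cells 1 was called, Irf8 (3.25), which also serves dendritic cells and monocytes. Of 7 pro- and pre-B-cell genes tested 1 was called, Rag2 (1.25), a subunit of the recombinase. Of 13 mature B-cell genes tested 4 were called, Cd40 (3.28), Cd83 (2.66), Fcrl1 (1.77) and H2-Ob (0.69), of which Cd40 and Cd83 are also used by dendritic cells. Of 6 constant-region genes of immunoglobulins and of 7 plasma cell genes 0 were called.

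Markers of antigen-presenting cells were called higher in the same comparison as Cd22, where 1.58% of all genes tested were. Their relation to Cd22 across libraries was not tested. Among the Y-TTPΔARE MPP3 libraries, replicate 4 had the highest MHC class II sum (12453 CPM) and replicate 1 the most Cd22 (7.02 CPM). All 7 MHC class II genes tested were called higher in Y-TTPΔARE MPP3 cells, with a summed level of 782 to 1274 CPM in the Y-WT and 5680 to 12453 in the Y-TTPΔARE libraries. Of 8 genes of conventional dendritic cells, a list chosen after their values were seen, 7 were called higher, among them Xcr1 (log2 fold change 5.52), Batf3 (5.28) and Clec9a (4.74), and their summed level was 144 to 194 CPM in the Y-WT libraries and 313 to 499 in Y-TTPΔARE. Of 7 genes of plasmacytoid dendritic cells tested 0 were called. Of 10 genes of T and NK cells tested 1 was called higher, Lck (0.76), of 11 granulocyte and monocyte genes 1, Elane (2.53), and of 8 erythroid genes 2, both globins. None of these lists had a gene called lower, and 0 of 10 HSC genes were called. The part of other cells in the level of Cd22 was not tested. The plasma cell sum was 499 to 4543 CPM in the Y-WT libraries and 673 to 4532 in Y-TTPΔARE MPP3 libraries, over nearly the same range.

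**Figure D4:**
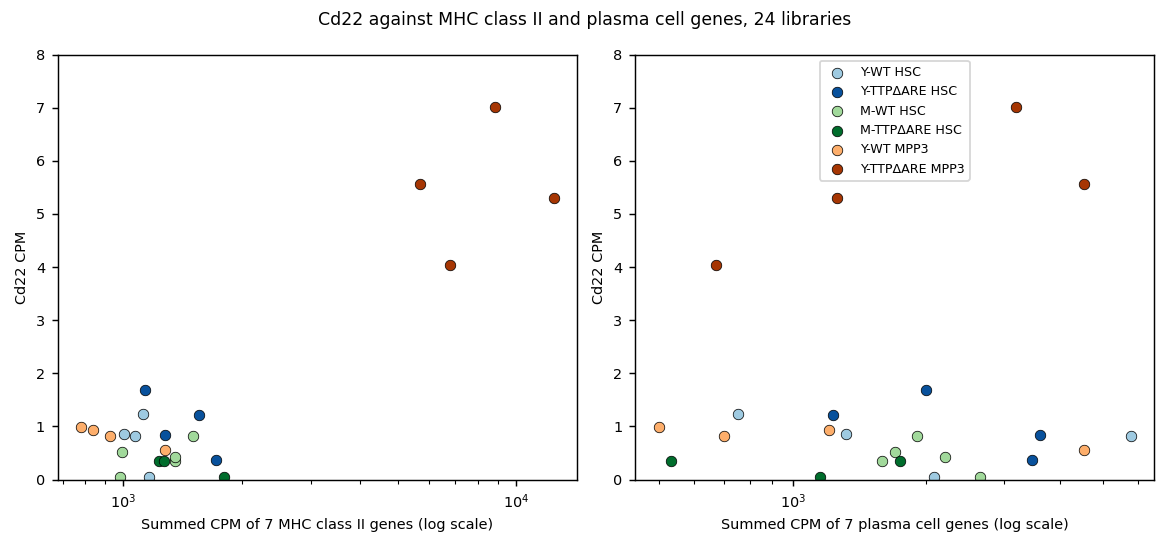
CPM of Cd22 (vertical axes, linear) against the summed CPM of 7 MHC class II genes (left) and of 7 plasma cell genes (right), both on log scales, in the 24 libraries, coloured by group. The 4 Y-TTPΔARE MPP3 libraries lie apart from the others in Cd22 (4.05 CPM and above) and in MHC class II (5680 CPM and above), but share the range of the other groups in the plasma cell sum. Cd22 and all 7 MHC class II genes were called higher in this group, so that they part together follows from those calls. Their relation across libraries and the part of other cells were not tested.

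In young HSCs 0 of the 9 members were called between Y-TTPΔARE and Y-WT by edgeR, where 0.0246% of 24381 genes were called. DESeq2 also called 0 members, where it called 165 of all genes higher and 139 lower. Zfp36 itself was not called in this edgeR fit (log2 fold change 0.96, standard error 0.21, adjusted p = 0.238). A member with a change of that size could thus be missed too. At an unadjusted p under 0.05 there was 1 member, Vpreb3. It had 0.367, 0.511, 0.409 and 0.650 CPM in the Y-WT libraries and 1.07, 2.60, 0.694 and 2.22 in Y-TTPΔARE. Every mutant library was above every Y-WT library, which held for 4.04% of all genes tested. The log2 fold change of Vpreb3 was 1.71 (standard error 0.53, adjusted p = 0.396 from edgeR). Cd22 did not part the genotypes of young HSCs, with 0.0524, 1.23, 0.817 and 0.856 CPM in the Y-WT libraries and 0.373, 0.846, 1.22 and 1.69 in Y-TTPΔARE. The signs were mixed, 4 positive and 5 negative, with a median of -0.54 against -0.07 for all genes. The negative values ran from -1.33 for Fcmr to -0.54 for Blk, and those of Ms4a1 and Blk turned positive without Y-WT HSC replicate 3, which was the highest library of its group for Ms4a1, Fcmr, Ebf1, Blk and Cd79a. In the lists of B-cell genes 0 were called.

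In middle-aged HSCs 0 of the 8 members tested were called by edgeR, where 1.41% of 21136 genes were called. DESeq2 also called 0 members, where it called 375 of all genes higher and 460 lower. Pax5 had too few counts for the fit, with 0.142, 0, 0.158, 0.337 and 0.0717 CPM in the M-WT libraries and 0.943, 0.161 and 0 in M-TTPΔARE (two-sided exact permutation p = 0.429, where the smallest possible is 0.0179). Ms4a1 was the only member with an unadjusted p under 0.05. It had 1.23, 0.657, 0.579, 1.60 and 0.621 CPM in the M-WT libraries and 1.76, 2.20 and 2.33 in M-TTPΔARE. Every M-TTPΔARE library was above every M-WT library, which held for 8.25% of all genes tested, and the log2 fold change was 1.12 (standard error 0.36, adjusted p = 0.162 from edgeR). Cd79a had a log2 fold change of -0.68 with a standard error of 0.38, and its adjusted p in edgeR's fit was 0.406. For Cd79b the difference was 0.00 (standard error 0.07), and the interval of 2 standard errors was -0.14 to 0.14. Of 15 genes of B-cell receptor signalling 1 was called higher. Of 7 plasma cell genes 1 was called lower, Xbp1 (-0.54), the factor of secretory cells. The other lists of B-cell genes held 0 calls. Of 10 HSC genes and of 5 conventional dendritic cell genes tested 1 each was called higher, and of 3 genes of multipotent progenitors 1 was called lower.

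Whether the effect of TTPΔARE on the members differed between ages or cell types was tested as an interaction. By age, 0 of 9 members passed in edgeR or DESeq2. Of all 28189 genes, 0.0213% passed in edgeR, and 50 higher and 110 lower in DESeq2. At an unadjusted p under 0.05 there were 2 members, Vpreb3 (difference of log2 fold changes, middle-aged minus young, -2.23, standard error 0.69, adjusted p = 0.251 from edgeR) and Ms4a1 (1.81, standard error 0.84, adjusted p = 0.326 from edgeR). By cell type, 0 of 9 members passed in either tool. Of all 26337 genes, 0.429% passed in edgeR, and 262 higher and 71 lower in DESeq2. All 9 differences were positive (MPP3 minus HSC), where 57.3% of those of all genes were. The signs were not tested as a set. Among the members 1 difference had an unadjusted p under 0.05, that of Cd22, which was 2.13 (standard error 0.83, adjusted p = 0.341 from edgeR). The call of Cd22 in MPP3 cells is thus not shown to differ from its value in young HSCs. The 2 genotype comparisons in each interaction share no library.

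Between WT MPP3 cells and WT HSCs of young mice 0 of the 8 members tested were called by edgeR or DESeq2 and 0 had an unadjusted p under 0.05, where 22.2% of 22816 genes were called. The largest differences were -1.45 for Pax5 (standard error 1.37, adjusted p = 0.447 from edgeR) and -1.43 for Ebf1 (standard error 0.89, adjusted p = 0.276 from edgeR). The interval of 2 standard errors was -0.32 to 0.36 for Cd79b and -1.91 to 1.49 for Cd79a, so only for Cd79b did it leave out a 2-fold change in both directions. Blk was left out of the fit for low counts (two-sided exact permutation p = 0.486, where the smallest possible is 0.0286).

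Between M-WT and Y-WT HSCs 0 of the 9 members were called by edgeR or DESeq2, where 12.1% of 22280 genes were called, and at an unadjusted p under 0.05 there were 4. Without the limit on logCPM 2 members passed, Ebf1 and Vpreb3, where 18.2% of all genes did. Ebf1 had 1.15, 2.62, 3.79 and 1.92 CPM in the Y-WT libraries and 0.712, 0.809, 0.711, 0.843 and 0.0478 in M-WT, each below every young library (log2 fold change -1.94, standard error 0.61, adjusted p = 0.0467 from edgeR). Vpreb3 went the other way, with every M-WT library (1.04, 0.758, 1.16, 1.91 and 1.10 CPM) above every Y-WT library (log2 fold change 1.28, standard error 0.41, adjusted p = 0.0478 from edgeR). Groups parted this way, without overlap, for 6.72% (lower) and 10.5% (higher) of all genes tested. The Y-WT libraries are also the controls of the genotype comparison in young HSCs, so the low Y-WT values of Vpreb3 (0.367 to 0.650 CPM) enter both of its differences. Leaving out single libraries gave adjusted p from 0.0144 to 0.125 for Ebf1 and from 0.0407 to 0.0926 for Vpreb3. Pax5 (-2.57, standard error 0.89, adjusted p = 0.0632 from edgeR) and Ms4a1 (-1.58, standard error 0.63, adjusted p = 0.0934 from edgeR) had lower values in M-WT and did not pass in edgeR. DESeq2 gave Pax5 an adjusted p of 0.0162 and Ms4a1 one of 0.043, and both stayed uncalled for the limit on logCPM. Leaving out single libraries gave adjusted p from edgeR of 0.0209 to 0.222 for Pax5 and 0.0126 to 0.437 for Ms4a1, the lowest in both without Y-WT HSC replicate 1. Without Y-WT HSC replicate 3, Cd79a was called higher in M-WT (1.10, adjusted p = 0.0427 from edgeR).

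Markers of other cells moved in the same WT age comparison. Of all 22280 genes tested there, 1868 were called higher and 823 lower, which is 12.1% in either direction. All 3 genes of multipotent progenitors were called lower in M-WT, Cd48 (log2 fold change -2.32), Flt3 (-1.16) and Cd34 (-0.73), and their summed level was 312 to 457 CPM in the Y-WT and 199 to 248 in the M-WT libraries. Of 10 HSC genes 7 were called higher, among them Fgd5 (0.90) and Slamf1 (0.65), with a sum of 3664 to 4071 CPM in Y-WT and 4351 to 5090 in M-WT. Of 10 genes of T and NK cells tested 5 were called lower, among them Cd3g (-3.86), and 1 higher, Klrb1c (1.97), with a sum of 90.7 to 107 CPM in Y-WT and 61.0 to 75.5 in M-WT. Of 8 erythroid genes 3 were called higher, all globins, and the sums overlapped, at 26.8 to 41.8 CPM in Y-WT and 29.5 to 114 in M-WT. The lists of B-cell genes held calls as well. Of 15 receptor signalling genes 4 were lower, among them Fcgr2b (-2.72) and Bank1 (-1.84), and 1 higher, Plcg2 (0.52). Of 14 transcription factors tested 3 were lower, among them Id3 (-2.93), and 4 higher, among them Bcl11a (0.33). Of 13 mature B-cell genes 2 were lower, H2-Ob (-0.94) and Tnfrsf13c (-0.37), and 0 of 6 pro- and pre-B-cell, 6 constant-region and 7 plasma cell genes were called. The part of other cells in the age differences of the members was not tested.

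The values of Ebf1 and Pax5 also moved with the summed CPM of 1971 genes for smell and pheromone receptors (olfactory and vomeronasal), whose known use is outside the blood. That sum was 61.4 to 983 CPM in the Y-WT libraries and 39.2 to 209 in M-WT HSCs. The number of genes with a count was 27729 to 41676 in the Y-WT and 25988 to 34668 in the M-WT HSC libraries. Over the 24 libraries r was 0.661 for Ebf1 and 0.668 for Pax5, with rho of 0.539 and 0.629 (permutation p = 5.3e-04 and 3.9e-04 for r, 0.0076 and 0.0012 for rho, and for r 0.0036 and 0.0035 after adjustment over 27 relations), and without the 2 libraries farthest from the median r was 0.512 and 0.586. For Ebf1 r was 0.834 in young HSCs, 0.739 in middle-aged HSCs and 0.548 in MPP3 cells (exact permutation p = 0.0090, 0.0295 and 0.167). For Pax5 the values were 0.664, 0.758 and 0.750 (exact permutation p = 0.0782, 0.0243 and 0.0324). In young HSCs r was also 0.838 for Ms4a1 and 0.779 for Cd22 (exact permutation p = 0.0074 and 0.0256), and it was -0.03 for Vpreb3. Over the 24 libraries it was 0.278 for Ms4a1 and 0.096 for Cd22. Ebf1 and Pax5 were singled out after these values were seen. The part of whatever raised the receptor genes in the age difference of Ebf1 was not tested.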

How the data were processed

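Reads were trimmed (Trim Galore!, Cutadapt), mapped to mm10 by STAR with GENCODE M22 models and assigned to genes by featureCounts, all by the authors. The deposited values are raw counts. Strand settings and read-pair counting are not given in the sources used here. Between 67.3% and 76.6% of counts from 1 to 20 were even, so counts were not taken as independent molecules. The paper and the labels name different SMARTer kits.

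Here counts were fitted in R 4.3.3 with edgeR 4.0.16 (filterByExpr with a minimum count of 10 and total of 15, TMM, quasi-likelihood F test, Benjamini-Hochberg adjustment over all genes tested) within the groups of each comparison. The limits on fold change and logCPM are the paper's. With them the paper, which also used edgeR, reports more changed genes in each genotype comparison than were called here. In young HSCs these include Zfp36. The shares of all genes given above are thus those of the present fit. The standard error is the log2 fold change divided by the square root of F. Members left out by the filter had an exact permutation test of CPM. Relations used log2 of CPM + 0.5 and 100000 permutations. The fit was tested on simulated counts with 200 changed genes. These were picked above a minimum level, and all genes were given the same dispersion. That test therefore does not show how well changes in low members are found. All 4 libraries labelled Y-TTPΔARE MPP3 were used, of which the paper uses 3. The members and lists were chosen with earlier results of these data known. Named were all members, at most 4 called genes of a list by smallest p or else the 2 with the smallest p. Some genes that this rule names are not reported here. Alternatives were DESeq2 1.42.0, RLE factors, no filter, no logCPM limit, a replicate block, all 24 libraries in a fit, library totals, and each library left out.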

Additional observations from a re-analysis of the deposited data

Results flagged for a closer look

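Each gene was checked in each group of 4 or 5 libraries for a library far from the rest, by Dixon's gap over the range. Chance flags about 1 in 20 groups where values are normally distributed. The check used CPM without a log, which need not be so distributed for low genes, and the rate of chance flags here is not known. Of the groups 45 were checked, and all flags are given. In Y-WT MPP3 replicate 1, Cd79a was at 40.1 CPM, where the other 3 libraries had 3.14 to 6.90. The same library had 0.882 CPM of Blk, where the others had 0.0578 to 0.104, and the highest share of immunoglobulin constant-region counts (6.12%). Blk was at 2.50 CPM in Y-TTPΔARE MPP3 replicate 2, where the others had 0.289 to 0.642. Ebf1 was at 0.0478 CPM in M-WT HSC replicate 5, which is 2 counts, where the others had 0.711 to 0.843. Cd79b was at 55.2 CPM in Y-TTPΔARE HSC replicate 4, where the others had 50.7 to 51.4.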

How the results depend on the processing

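Of the counts of members called in the 7 comparisons, those of 5 were 0 under every alternative run for them. The MPP3 count of 1 fell to 0 with all 24 libraries in the fit, where Cd22 had an adjusted p of 0.0242 but missed the logCPM limit, and ran from 0 to 1 with single libraries left out. In the WT age comparison 1 was called higher and 1 lower without the logCPM limit, and 0 to 1 higher with single libraries left out.

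The labels do not say whether same-numbered libraries share an animal. Deviations of same-numbered libraries correlated from -0.149 to 0.210, and those of differently numbered ones from -0.263 to 0.290. Between WT cell types the same-numbered values were 0.0230, 0.135, 0.0697 and 0.177. These correlations cannot settle whether libraries are paired. A fit with the replicate number as a block left every count of members called unchanged and gave Cd22 in MPP3 cells a log2 fold change of 2.67. With this replicate block the sign turned for Blk in young HSCs (0.13), Fcmr in middle-aged HSCs (-0.11), Ms4a1 (-0.12) and Vpreb3 (-0.10) between WT cell types, Blk between WT ages (0.21) and Blk in the age interaction (-0.36). The sign of Cd79b turned between WT cell types with DESeq2 and RLE factors (-0.0174 each) and without the filter (-0.00802), and without the filter also in middle-aged HSCs (-0.00416) and between WT ages (0.0119).

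With single libraries left out, log2 fold changes that turned sign ran from -1.01 to 0.24 for Ms4a1, -1.15 to 0.0262 for Pax5 and -0.84 to 0.66 for Blk in young HSCs, and from -0.0525 to 0.0457 for Cd79b and -0.48 to 0.93 for Blk in middle-aged HSCs. Between WT cell types they ran from -1.75 to 0.64 for Cd79a, -0.15 to 0.18 for Cd79b, -0.90 to 1.24 for Ms4a1, -0.17 to 0.49 for Cd22, -1.57 to 0.54 for Fcmr and -0.26 to 0.86 for Vpreb3. Between WT ages they ran from -0.11 to 1.10 for Cd79a, -0.15 to 0.0337 for Cd79b, -1.12 to 0.40 for Blk and -1.55 to 0.0598 for Fcmr. In the age interaction they ran from -0.12 to 2.45 for Pax5 and -0.0693 to 1.48 for Blk, and in the cell type interaction from -0.66 to 1.78 for Cd79a, -0.00570 to 0.30 for Cd79b and -0.10 to 1.28 for Vpreb3. None of these was called in the fit reported. The cause of these changes was not tested. For the 7 members other than Cd79a and Cd79b, low counts limit what a difference can show.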
